A study of Homo sapiens with 6 samples.

Results

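The proteasome genes were followed in T-24 cells, an established line of adherent epithelial cells derived from a human bladder carcinoma. Cells had received 1 µM CCT068127 for 48 h (3 libraries) or the vehicle DMSO for as long (3 libraries). CCT068127 is a small molecule that blocks the kinases CDK2 and CDK9. Both groups are the same unmodified line, and the series' design text calls the 3 samples of each independent biological replicates. RNA was poly(A)-selected, and the deposited tables give an estimated read count and a TPM value (a length-corrected share of transcripts) per gene symbol. The members are the rows whose symbol is PSM, a letter from A to G and a number, which gave 48 of the 38557 symbols in the tables. This family was singled out after its values in this same comparison had been seen, so its fold changes and calls are a description and carry no test of their own.

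The proteasome is the ATP-dependent protease that degrades proteins tagged with ubiquitin. Its 20S core is a barrel of outer alpha rings, which gate the entry, and inner beta rings, which hold the proteolytic sites. A 19S regulatory particle caps the barrel: its base unfolds the substrate with a ring of ATPases and its lid removes the ubiquitin chain. Interferon replaces the catalytic beta subunits by the immunoproteasome subunits, dedicated chaperones put core and base together, and the transcription factor NRF1 (gene NFE2L1) is known to induce the whole gene set when proteasomes are inhibited.

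Total counts were 5557546, 1966742 and 4657316 in CCT068127 replicates 1 to 3 and 371044040, 411097626 and 5955296 in DMSO replicates 1 to 3, so DMSO replicates 1 and 2 were far deeper than the other 4 libraries. The 13 mitochondrially encoded genes took 2.01%, 4.07% and 2.42% of counts in CCT068127 replicates 1 to 3 and 2.27% to 2.41% in the DMSO libraries, and CCT068127 replicate 2 was also the shallowest library. The epithelial keratins KRT7, KRT8, KRT18 and KRT19 averaged 287 to 2510 CPM (counts scaled to a common library total) with CCT068127 and 141 to 1370 CPM with DMSO, EPCAM 3.15 and 3.54 CPM, and CDH1 was below the test filter. Of 6 urothelial markers only GATA3 passed that filter, at 26.6 CPM with CCT068127 and 123 CPM with DMSO. Of 3 leukocyte markers CD14 passed (1.86 and 3.66 CPM), and PTPRC (1 and 0.251 CPM) and CD3E (0 and 0.0128 CPM) did not. Of 3 endothelial markers PECAM1 (2.29 and 5.49 CPM) and CDH5 (7.34 and 3.96 CPM) passed. In bulk RNA, fewer cells expressing a gene and less RNA per cell cannot be told apart.

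The core, base and lid genes stood mostly higher with CCT068127 under TMM scaling, 2 of 3 immunoproteasome genes stood lower, and 1 subunit gene, PSMD2, moved far more than all others. Of the 48 members 46 passed the filter on low counts. PSMA8, an alpha subunit of the testis, had 0 counts in every CCT068127 library and 1, 3 and 0 counts in the DMSO libraries, and PSMB11, the beta subunit of the thymus, had 0 counts in all 6. In the edgeR fit over 13597 genes, 26 of the 46 were past an adjusted p of 0.05 as higher and 3 as lower, beside 31.9% of all genes higher and 32.8% lower. At least 2-fold higher among these were 3 members (all genes 15.5%), PSMD2, PSMB3 and PSMB2, and at least 2-fold lower was 1 (all genes 12.9%), PSMB10. With scaling by library totals the split was 17 higher and 12 lower (all genes 22.1% and 48.3%), and for log2(TPM + 1) it was 12 higher and 19 lower (all genes 17.2% and 51.9%). In TPM, 14 members had every CCT068127 library above every DMSO library and 20 every one below (all genes 18.7% and 57.5%). Below, rose and fell refer to calls of the edgeR fit with TMM scaling, and log2 fold changes are CCT068127 over DMSO from that fit, with their standard error (SE). All of these values are relative to the other transcripts of a library, and the deposited data give no amount of RNA per cell.

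The 3 scalings set zero at different heights. The median log2 fold change over all genes was -0.05 with TMM, -0.36 with library totals and -0.46 on log2(TPM + 1) values, and the median over the 46 members was 0.42, 0.11 and -0.09. The members' median thus stood above that of all genes by 0.47, 0.47 and 0.37. TPM levels printed below are the authors' values, so a gene with equal TPM in both groups stood about 0.46 above the typical gene. The members took 0.7%, 0.656% and 0.668% of all counts in CCT068127 replicates 1 to 3, against 0.532%, 0.534% and 0.542% in DMSO replicates 1 to 3. With the deep DMSO libraries thinned the counts were again 26 higher and 3 lower with a median of 0.43, and the median was also 0.43 with DMSO replicate 3 as the sole control. Their summed TPM was 8349, 7821 and 8118 with CCT068127 and 7700, 7801 and 7911 with DMSO, so on the length-corrected scale the groups overlapped.

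**Figure D1:**
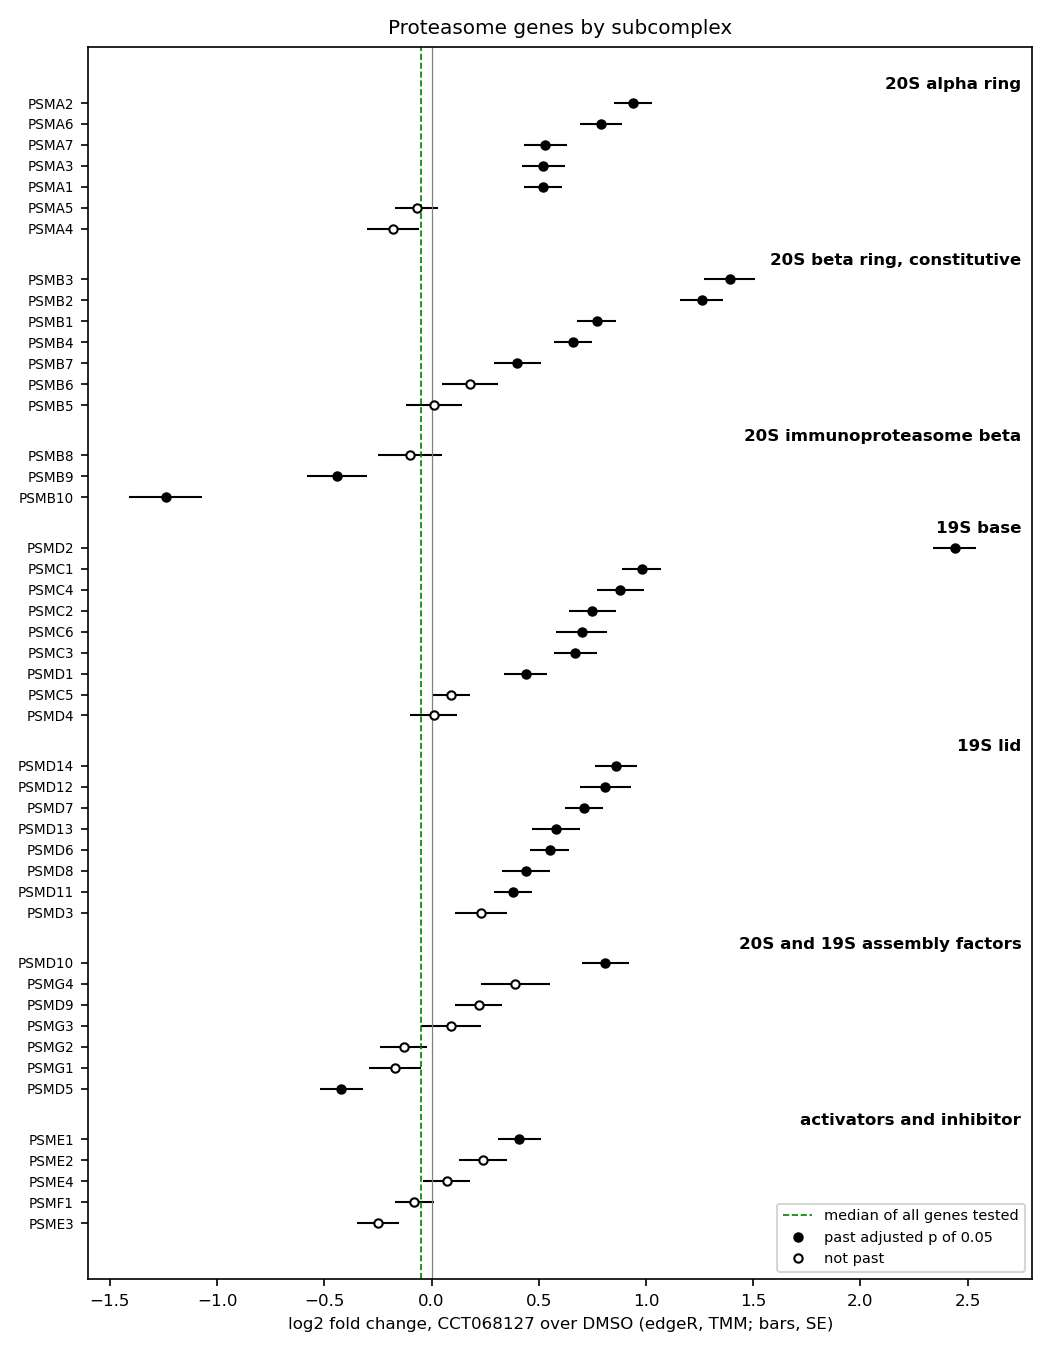
Log2 fold change of each of the 46 tested proteasome genes, CCT068127 over DMSO, with its SE, grouped by subcomplex and ordered within it; filled points were past an adjusted p of 0.05 over all genes (edgeR). PSMD2 stands apart at 2.44 and PSMB10 is lowest at -1.24, while most assembly factors and activators lie around the dashed median of all genes.

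Relative to other transcripts, the genes of the outer alpha rings stood higher in 5 of 7 tested cases (all genes 31.9%). Their median log2 fold change was 0.52 under TMM. PSMA2 had 162, 176 and 170 TPM in CCT068127 libraries, against 130, 123 and 118 TPM in DMSO libraries, and rose by 0.94 ± 0.09. PSMA6 had 357, 364 and 326 TPM with CCT068127 and 263, 289 and 287 TPM with DMSO, and rose by 0.79 ± 0.10. In both genes every CCT068127 library lay above every DMSO library in TPM (all genes 18.7%). PSMA1 and PSMA3 (0.52 each) and PSMA7 (0.53) rose under TMM, but their calls were lost with library totals, their TPM ranges overlapped between the groups and their log2(TPM + 1) differences were 0.03 to 0.04. PSMA5 stood at -0.07 ± 0.10 and was not past the threshold. PSMA4 had 221, 269 and 201 TPM with CCT068127 and 345, 376 and 365 TPM with DMSO, with a log2 fold change of -0.18 ± 0.12 that was not past the threshold, but that passed without CCT068127 replicate 2 (-0.31). PSMA4 and PSMA5 both passed as lower with library totals (-0.49 and -0.38) and on log2(TPM + 1) values (-0.66 and -0.56).

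The 7 alpha subunits share each ring in equal number, yet their transcripts did not stand at equal levels. The highest over the lowest TPM was 19.1, 19 and 17.7 in CCT068127 libraries, against 11.6, 12.1 and 13.1 in DMSO libraries. PSMA7 was at the top in both groups (847 ± 65.7 and 827 ± 43.1 TPM) and PSMA5 at the bottom (45.7 ± 3.9 and 67.5 ± 0.736 TPM; SD, n = 3 each). The spread among the subunits was therefore wider with CCT068127 in all 3 libraries.

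In the constitutive beta ring 5 of 7 genes rose (all genes 31.9%), with a median of 0.66 under TMM. Those that moved most were not the catalytic ones. PSMB3, a structural subunit, had 484, 389 and 494 TPM with CCT068127 and 246, 234 and 246 TPM with DMSO, and rose 2.61-fold (log2 1.39 ± 0.12). PSMB2, its neighbour in the ring and likewise without a proteolytic site, had 76.5, 77 and 71.4 TPM with CCT068127 and 44.6, 44.9 and 41.9 TPM with DMSO, and rose 2.39-fold (1.26 ± 0.10). PSMB1 (0.77 ± 0.09) and PSMB4 (0.66 ± 0.09), the other structural subunits, rose less. Set against PSMB4 within each library, PSMB3 stood at 1.11, 0.892 and 1.19 with CCT068127 and at 0.637, 0.61 and 0.662 with DMSO, a ratio that no library scaling can move.

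The catalytic subunits of the standard core lagged behind. PSMB5, which carries the chymotrypsin-like site, had 187, 131 and 158 TPM with CCT068127, against 223, 210 and 239 TPM with DMSO, and a log2 fold change of 0.01 ± 0.13. PSMB6, with the caspase-like site, had 192, 142 and 197 TPM with CCT068127 and 221, 216 and 235 TPM with DMSO, at 0.18 ± 0.13. Neither was past the threshold in the count fit, PSMB6 passed as higher without CCT068127 replicate 2 (0.27), and on log2(TPM + 1) values both passed as lower (PSMB5 -0.51, PSMB6 -0.35). PSMB7, with the trypsin-like site, rose by 0.40 ± 0.11, a call kept in 10 of 17 alternative fits. It was lost without replicate 3 of either group, with library totals (0.09), without a low-count filter and in the 3 TPM fits. PSMB7 TPM of 303 ± 32.3 with CCT068127 and 322 ± 17.3 with DMSO overlapped (log2(TPM + 1) difference -0.09). In PSMB5 and PSMB6 the CCT068127 library with the lowest TPM was replicate 2.

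The promoter of PSMB3, the structural core gene that rose most, is printed here as the 250 bases before and 50 after its RefSeq start (GRCh38.p14, chr17:38752491-38752790, plus strand), with capitals marking the letters of the motifs described further on.
PSMB3: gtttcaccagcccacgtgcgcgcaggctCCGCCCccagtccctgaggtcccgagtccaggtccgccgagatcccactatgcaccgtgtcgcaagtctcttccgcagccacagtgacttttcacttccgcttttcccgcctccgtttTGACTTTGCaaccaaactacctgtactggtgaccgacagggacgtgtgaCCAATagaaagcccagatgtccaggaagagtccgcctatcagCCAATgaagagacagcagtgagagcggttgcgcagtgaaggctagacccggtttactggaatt

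Of the 3 immunoproteasome genes 0 rose, 2 fell and 1 was not past the threshold (all genes 31.9% higher and 32.8% lower). Their median was -0.44 under TMM, and limma-voom called 1 lower. PSMB10, the interferon-induced counterpart of PSMB7, had 59.3, 31.9 and 59.3 TPM with CCT068127 and 169, 175 and 186 TPM with DMSO. It fell by 1.24 ± 0.17 on the log2 scale, the lowest value of the family, and by 1.10 without CCT068127 replicate 2. PSMB9, the counterpart of PSMB6, had 74.2, 54.6 and 71.7 TPM with CCT068127 and 117, 133 and 145 TPM with DMSO, and fell by 0.44 ± 0.14. PSMB8, the counterpart of PSMB5, had 133, 82.7 and 101 TPM with CCT068127 and 152, 166 and 177 TPM with DMSO. The PSMB8 log2 fold change of -0.10 ± 0.15 was not past the threshold. However, it passed as lower without CCT068127 replicate 1 (-0.35), with library totals (-0.41) and on log2(TPM + 1) values (-0.66). In all 3 genes every CCT068127 library had lower TPM than every DMSO library, as in 57.5% of all genes tested. PSMB8 and PSMB9 lie side by side on chromosome 6 (32840717 to 32844703 and 32844136 to 32859585, GENCODE 29) and share 139 exon bases on opposite strands, and the labels do not say whether counting used strand. PSMB8 also shares 20.6% of its exon bases with the opposite-strand PSMB8-AS1, which averaged 3.2 TPM with CCT068127 and 8.64 TPM with DMSO. PSMB10 (chromosome 16, 67934502 to 67937087) shares 644 exon bases with a read-through gene model on its own strand.

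Within a library, the share of the immunosubunit in each catalytic pair does not depend on scaling. For PSMB10 it was 16.2%, 10.6% and 15.1% of the PSMB10 plus PSMB7 TPM with CCT068127, against 34%, 34.3% and 38.1% with DMSO. For PSMB9 it was 27.9%, 27.8% and 26.7% of the PSMB9 plus PSMB6 TPM with CCT068127, against 34.6%, 38.1% and 38.2% with DMSO. For PSMB8 it was 41.5%, 38.6% and 39.1% of the PSMB8 plus PSMB5 TPM with CCT068127, against 40.6%, 44.1% and 42.5% with DMSO. The groups were apart for PSMB10 and PSMB9 and overlapped for PSMB8. Counts of PSMB10 were 178, 33 and 148 in the CCT068127 libraries, so its value in replicate 2 rests on few reads.

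**Figure D2:**
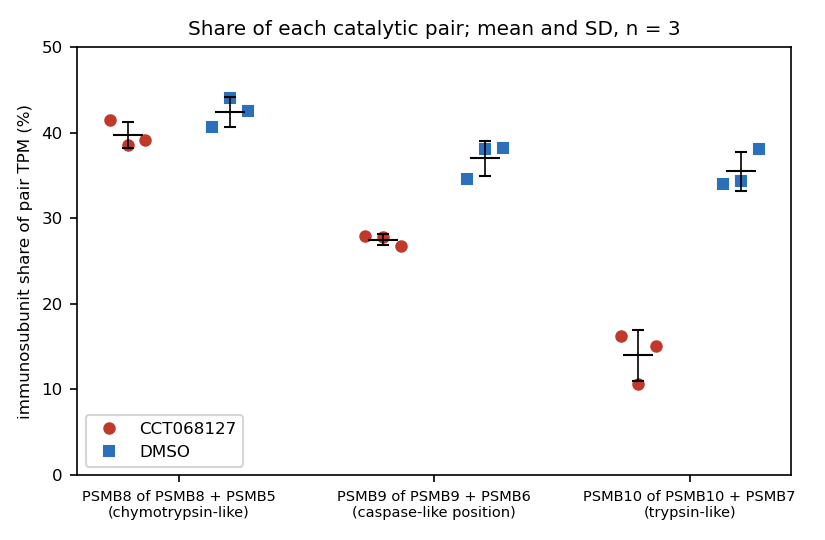
Share of the immunosubunit in the summed TPM of each catalytic pair, in percent, for CCT068127 (red circles, left) and DMSO (blue squares, right) libraries, with mean and SD over 3 libraries. The PSMB10 share averaged 14% with CCT068127 and 35.5% with DMSO, and the PSMB8 shares overlapped.

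Promoters of the immunosubunit genes that fell are printed with the same window and marking (GRCh38.p14; PSMB10, chr16:67936801-67937100, minus strand; PSMB9, chr6:32853942-32854241, plus strand). The PSMB10 window holds an interferon-stimulated response element core (GAAAGCGAAA) 21 bases before the start.
PSMB10: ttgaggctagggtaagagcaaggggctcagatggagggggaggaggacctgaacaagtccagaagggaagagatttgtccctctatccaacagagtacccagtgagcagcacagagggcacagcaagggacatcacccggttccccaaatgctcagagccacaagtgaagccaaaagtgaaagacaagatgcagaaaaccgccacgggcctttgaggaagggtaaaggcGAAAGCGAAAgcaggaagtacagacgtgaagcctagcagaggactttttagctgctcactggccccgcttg
PSMB9: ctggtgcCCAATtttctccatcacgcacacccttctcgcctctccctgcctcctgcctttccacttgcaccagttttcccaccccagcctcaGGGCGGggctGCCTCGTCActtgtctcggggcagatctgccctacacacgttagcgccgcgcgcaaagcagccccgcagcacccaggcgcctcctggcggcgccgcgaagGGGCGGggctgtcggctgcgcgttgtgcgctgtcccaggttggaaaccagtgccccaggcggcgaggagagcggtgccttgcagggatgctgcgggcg

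Genes that bear on immunoproteasome induction did not move together. IRF1, an interferon-induced transcription factor, had 18, 23 and 23.5 TPM with CCT068127 and 95.9, 106 and 103 TPM with DMSO, and fell by 1.51 ± 0.12 (edgeR adjusted p = 1.87e-06). The peptide transporter gene TAP1, which lies beside PSMB9, stood at 0.10 ± 0.13 (adjusted p = 0.527; -0.39 on log2(TPM + 1) values, past the threshold as lower), and TAP2 rose by 0.79 ± 0.11 (adjusted p = 0.000108). NLRC5, an activator of class I antigen presentation genes, rose by 0.59 ± 0.16 (adjusted p = 0.00706), a call lost on log2(TPM + 1) values (adjusted p = 0.181) and after scaling to library totals (adjusted p = 0.133).

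The base of the regulatory particle held the largest change. PSMD2 (chromosome 3, 184298709 to 184309054), the scaffold on which ubiquitin-like shuttle factors and the deubiquitinase USP14 dock, had 759, 755 and 678 TPM with CCT068127, against 206, 178 and 184 TPM with DMSO. The lowest CCT068127 library stood far above the highest DMSO library. PSMD2 rose 5.41-fold (log2 2.44 ± 0.10), with alternatives from 1.94 to 2.48, and ranked 714 from the top among the 13597 genes. PSMD1, the other large scaffold of the base, had 50.8, 62.2 and 54.2 TPM with CCT068127 and 55.3, 57.1 and 57.8 TPM with DMSO. PSMD1 rose by 0.44 ± 0.10 in the count fit, a call lost with library totals (0.13), with a log2(TPM + 1) difference of -0.03. Both proteins occur once per base, and their transcript ratio, PSMD2 over PSMD1, was 14.9, 12.1 and 12.5 with CCT068127 and 3.73, 3.11 and 3.18 with DMSO. Against the median of the 8 lid genes, PSMD2 stood at 6.12, 6.71 and 5.93 with CCT068127 and at 1.88, 1.71 and 1.72 with DMSO. No exon of PSMD2 overlaps another gene in GENCODE 29.

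A gene of the base outside the naming pattern rose as well. ADRM1, which encodes the ubiquitin receptor RPN13 of the base, had 893, 661 and 812 TPM with CCT068127 and 295, 256 and 274 TPM with DMSO, and rose 4.01-fold (log2 2.0 ± 0.13, edgeR adjusted p = 3.82e-07). PSMD4, a further intrinsic ubiquitin receptor, did not follow. It had 186, 149 and 185 TPM with CCT068127 and 244, 247 and 236 TPM with DMSO, at 0.01 ± 0.11 in the count fit. PSMD4 passed as lower with library totals (-0.30) and on log2(TPM + 1) values (-0.49). PSMD2 over PSMD4 was 4.08, 5.09 and 3.66 with CCT068127 and 0.843, 0.718 and 0.781 with DMSO, so the order of these transcripts turned round.

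**Figure D3:**
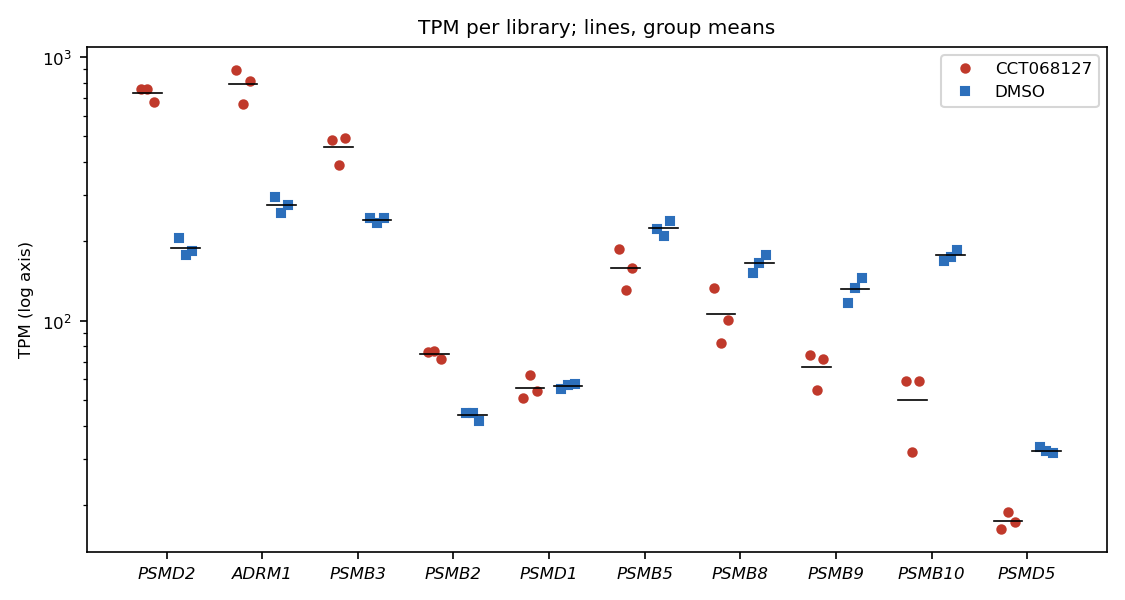
TPM per library on a log axis for 10 genes, CCT068127 (red circles) left of DMSO (blue squares) for each gene, with group means as lines. PSMD2, ADRM1, PSMB3 and PSMB2 lie higher with CCT068127, PSMB5, PSMB8, PSMB9, PSMB10 and PSMD5 lower, and PSMD1 overlaps.

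The promoters of PSMD2 and ADRM1, the proteasome genes with the largest increases, are shown with the same window and marking (GRCh38.p14, plus strand; PSMD2, chr3:184298991-184299290; ADRM1, chr20:62302646-62302945). The PSMD2 window holds 3 GC boxes, while that of ADRM1 holds an antioxidant response element core, a CCAAT box and a GC box.
PSMD2: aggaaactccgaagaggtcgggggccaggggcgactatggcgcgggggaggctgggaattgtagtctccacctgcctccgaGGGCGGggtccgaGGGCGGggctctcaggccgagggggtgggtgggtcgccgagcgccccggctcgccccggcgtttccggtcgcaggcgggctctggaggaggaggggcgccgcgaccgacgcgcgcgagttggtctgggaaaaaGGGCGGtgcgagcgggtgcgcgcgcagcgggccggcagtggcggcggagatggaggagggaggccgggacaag
ADRM1: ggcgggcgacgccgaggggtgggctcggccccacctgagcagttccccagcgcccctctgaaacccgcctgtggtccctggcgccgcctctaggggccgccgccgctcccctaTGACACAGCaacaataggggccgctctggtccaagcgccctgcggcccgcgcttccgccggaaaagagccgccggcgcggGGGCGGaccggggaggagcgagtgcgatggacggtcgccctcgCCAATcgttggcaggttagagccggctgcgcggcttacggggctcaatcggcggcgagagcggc

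Of the ATPases, which form the unfolding ring, 5 of 6 rose under TMM (all genes 31.9%). PSMC1 had 185, 191 and 180 TPM with CCT068127 and 134, 136 and 128 TPM with DMSO, and rose by 0.98 ± 0.09. PSMC4 had 136, 116 and 114 TPM with CCT068127 and 93.1, 96.1 and 91.5 TPM with DMSO, and rose by 0.88 ± 0.11. PSMC2 (0.75), PSMC6 (0.70) and PSMC3 (0.67) rose as well, calls that were lost on log2(TPM + 1) values. PSMC5 did not join them, with 148, 150 and 137 TPM with CCT068127, 194, 192 and 202 TPM with DMSO and a log2 fold change of 0.09 ± 0.09. On log2(TPM + 1) values PSMC5 passed as lower (-0.44) and PSMC6 stood at -0.21. PSMC1 shares 75.8% of its exon bases with the opposite-strand gene NRDE2, which had 3.17 ± 0.666 TPM with CCT068127 and 8.61 ± 1.3 TPM with DMSO (SD, n = 3). GENCODE 29 also lists 13 pseudogenes of PSMC1, of which 0 are in the deposited tables. PSMC5 shares 19.5% of its exon bases with the opposite-strand gene FTSJ3, which averaged 20.6 TPM with CCT068127 and 38.2 TPM with DMSO.

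In the lid 7 of 8 genes rose under TMM (all genes 31.9%), and the log2 fold changes of the 8 lay between 0.23 and 0.86. PSMD14, the metalloprotease that cuts ubiquitin chains off substrates, had 102, 113 and 103 TPM with CCT068127, against 83.5, 76.2 and 85.4 TPM with DMSO, and rose by 0.86 ± 0.10. PSMD12 (0.81), PSMD7 (0.71), PSMD13 (0.58), PSMD6 (0.55), PSMD8 (0.44) and PSMD11 (0.38) rose. The PSMD11 call was lost without DMSO replicate 2 (0.33) and with library totals (0.07). PSMD7 is the partner with which PSMD14 forms a dimer, and 30.7% of PSMD7 exon bases lie opposite the transcript AC009120.2. PSMD3 had 146, 112 and 126 TPM with CCT068127 and 157, 156 and 150 TPM with DMSO, and its 0.23 ± 0.12 was not past the threshold, but it passed as higher without CCT068127 replicate 2 (0.29) and as lower on log2(TPM + 1) values (-0.28). With library totals 4 of 8 were past the threshold as higher and 0 as lower (all genes 22.1% and 48.3%). On log2(TPM + 1) values 2 were higher and 1, PSMD3, lower (all genes 17.2% and 51.9%), and PSMD8 (-0.07) and PSMD11 (-0.11) also stood below 0. The small lid gene SEM1, which lies outside the naming pattern, had 267, 314 and 303 TPM with CCT068127 and 207, 203 and 230 TPM with DMSO, and rose by 0.96 ± 0.10 (edgeR adjusted p = 1.68e-05).

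The activators and the inhibitor that can cap the core in place of the 19S particle stayed near the median of all genes. Of these 5 genes 1 was higher and 0 lower (all genes 31.9% and 32.8%), and their median was 0.07 under TMM. That median was -0.05 without CCT068127 replicate 2, -0.24 with library totals and -0.41 on log2(TPM + 1) values. PSME1, a subunit of the interferon-inducible activator PA28, had 572, 515 and 533 TPM with CCT068127 and 536, 592 and 590 TPM with DMSO. It rose by 0.41 ± 0.10 in the count fit, a call lost with library totals (0.09), and its TPM ranges overlapped (log2(TPM + 1) difference -0.08). Its partner PSME2 had 319, 300 and 345 TPM with CCT068127 and 348, 407 and 389 TPM with DMSO, at 0.24 ± 0.11. PSME2 was not past the threshold, but it passed as higher with DESeq2 (0.28) and as lower on log2(TPM + 1) values (-0.25). PSME3, the nuclear activator PA28 gamma, had 54, 58.2 and 48.7 TPM with CCT068127 and 86.1, 90.9 and 90.4 TPM with DMSO. Its log2 fold change of -0.25 ± 0.10 fell just short of the threshold, and it passed as lower in 11 of 17 alternative fits. These were upper-quartile scaling (-0.25), DESeq2 (-0.22), limma-voom (-0.26), library totals (-0.56), no low-count filter (-0.49), the 3 TPM fits (-0.73 to -0.74), and the fits without CCT068127 replicate 1 (-0.31), CCT068127 replicate 2 (-0.32) or DMSO replicate 1 (-0.30). PSME3 over PSME1 was 0.0943, 0.113 and 0.0913 with CCT068127 and 0.161, 0.153 and 0.153 with DMSO. PSME4, the activator PA200, stood at 0.07 ± 0.11 (14.8 ± 2.25 and 19.9 ± 1.2 TPM with CCT068127 and DMSO). The core inhibitor gene PSMF1 stood at -0.08 ± 0.09 (29.8 ± 1.01 and 44.3 ± 0.838 TPM). Both passed as lower on log2(TPM + 1) values (PSME4 -0.41, PSMF1 -0.56), and PSMF1 also with library totals (-0.39).

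Of the 7 assembly factors tested 1 rose and 1 fell (all genes 31.9% and 32.8%). Their median was 0.09 under TMM, -0.09 without CCT068127 replicate 1, -0.22 with library totals and -0.58 on log2(TPM + 1) values. The chaperones PSMG1 to PSMG4 help the alpha ring form, and none was past the threshold in the edgeR fit with TMM. PSMG4 passed as higher with DESeq2 and with its size factors in edgeR (0.43 each), without CCT068127 replicate 2 (0.48) and without DMSO replicate 1 (0.44). PSMG1 had 33.2, 37.4 and 30.2 TPM with CCT068127 and 56.1, 50.2 and 51.3 TPM with DMSO (-0.17 ± 0.12), and PSMG2 39.8, 46.4 and 47.7 TPM with CCT068127 and 69.1, 64.7 and 67.8 TPM with DMSO (-0.13 ± 0.11). Both passed as lower with library totals (PSMG1 -0.48, PSMG2 -0.44) and on log2(TPM + 1) values (PSMG1 -0.63, PSMG2 -0.58). On the latter 1 of the 7 assembly factors was higher and 5 lower, beside 17.2% and 51.9% of all genes. Relative to the median of all genes, the median of the assembly factors was -0.12 on that scale and 0.14 under TMM. PSMG3 stood at 0.09 ± 0.14. The median of PSMG1 to PSMG4 over the median of PSMA1 to PSMA7 was 0.17, 0.121 and 0.186 TPM per TPM with CCT068127, against 0.219, 0.199 and 0.202 with DMSO. POMP, the maturation factor of the beta ring, which the naming pattern misses, rose by 0.79 ± 0.10 (edgeR adjusted p = 5.54e-05).

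The chaperones of the base went different ways. PSMD5 had 16.2, 18.8 and 17.3 TPM with CCT068127 and 33.2, 32 and 31.5 TPM with DMSO, and fell by 0.42 ± 0.10 on the log2 scale. PSMD10, known as gankyrin, had 88.5, 101 and 99.4 TPM with CCT068127 and 71.6, 74.2 and 86.2 TPM with DMSO, and rose by 0.81 ± 0.11. PSMD9 stood at 0.22 ± 0.11 and was not past the threshold, but it passed as higher with DESeq2 (0.26) and as lower on log2(TPM + 1) values (-0.25). PSMD5 over PSMD10 was 0.183, 0.187 and 0.174 with CCT068127, against 0.463, 0.432 and 0.365 with DMSO.

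For 2 members counts and TPM moved apart. Counts per TPM, relative to the median gene of a library, trace the mean length of the transcripts to which the authors' quantification assigned the reads. Between the groups this length shifted by less than 0.1 on the log2 scale for 44 of the 46 tested members. PSMC6 shifted by 0.45, with -0.44, -0.44 and -0.48 in the CCT068127 libraries and -0.89, -0.90 and -0.91 in the DMSO libraries. PSMG4 shifted by 0.86, with -1.82, -1.20 and -1.77 in CCT068127 and -2.41, -2.38 and -2.56 in DMSO libraries. The middle 90% of 9129 genes lay between -0.19 and 0.14. PSMG4 accordingly had a log2 fold change of 0.39 ± 0.16 in counts, not past the threshold, and of -0.96 on log2(TPM + 1) values, past it as lower, with 35.5, 16.1 and 36 TPM with CCT068127 and 59.3, 51.7 and 52.8 TPM with DMSO. PSMG4 counts were 104, 25 and 91 in the CCT068127 libraries, and 13.3% of its exon bases lie opposite SLC22A23.

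**Figure D4:**
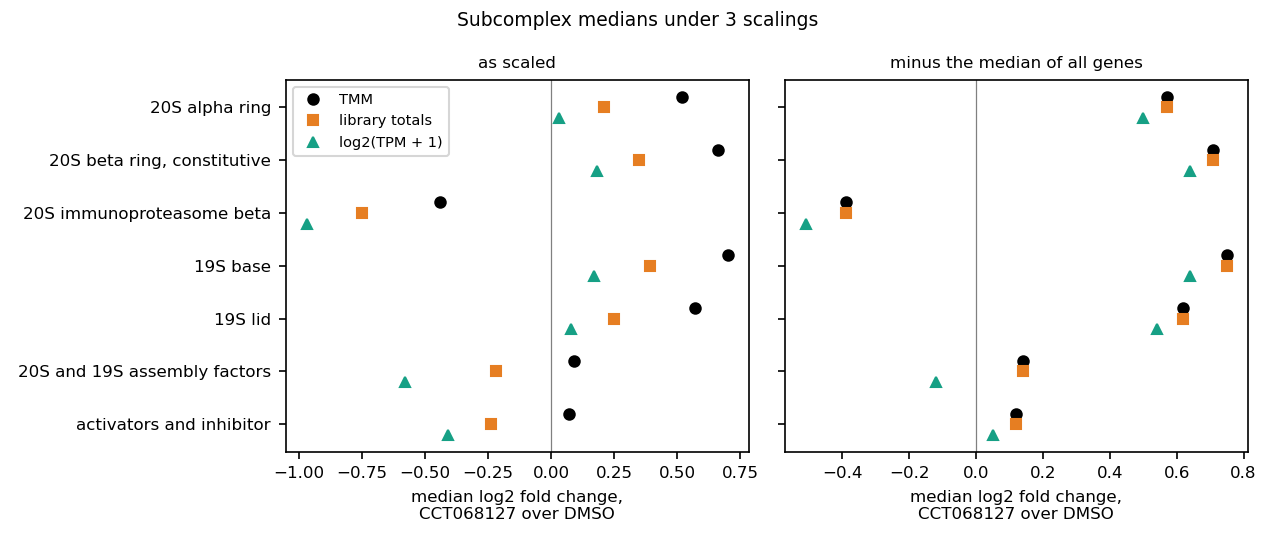
Median log2 fold change of the tested genes of each subcomplex, CCT068127 over DMSO, under TMM, library totals and log2(TPM + 1), as scaled (left) and after subtracting the median of all genes under the same scaling (right). Core, base and lid lie above the median of all genes under each scaling, and the immunoproteasome genes below it.

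Across 17 alternative fits that give calls, 12 members were past the threshold as higher in every one and 2 as lower. Those higher are PSMA2, PSMA6, PSMB1, PSMB2, PSMB3, PSMB4, PSMC1, PSMC4, PSMD2, PSMD7, PSMD10 and PSMD14, and those lower are PSMB10 and PSMD5. PSMB9 passed as lower in all but limma-voom, where it stood at -0.40.

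The genes known to regulate proteasome expression gave a mixed picture, with 5 of 13 higher and 4 lower, beside 31.9% and 32.8% of all genes, against 2 higher and 7 lower both with library totals and on log2(TPM + 1) values. These shares are near those of all genes. NFE2L1, which encodes NRF1, had 103, 85.7 and 91.7 TPM with CCT068127 and 165, 179 and 184 TPM with DMSO, and fell by 0.43 ± 0.10 (edgeR adjusted p = 0.00373). NGLY1, the glycanase that NRF1 needs for its activation, had 7.3, 9.05 and 7.5 TPM with CCT068127 and 25.8, 24.4 and 23.6 TPM with DMSO, and fell by 1.28 ± 0.14 (adjusted p = 1.45e-05). DDI2, the protease that cleaves NRF1, was not past the threshold (0.25 ± 0.14, adjusted p = 0.138), except without CCT068127 replicate 1 (0.35, adjusted p = 0.0328). NFE2L2, which encodes NRF2, rose by 0.46 ± 0.10 (adjusted p = 0.00252), while its log2(TPM + 1) difference was -0.24 and its call was lost with library totals (adjusted p = 0.225). NFE2L3 stood at 0.03 ± 0.10 (adjusted p = 0.774; -0.28 with library totals). The small MAF partners of these factors rose, MAFF by 1.68 ± 0.13 (adjusted p = 1.11e-06) and MAFG by 1.50 ± 0.12 (adjusted p = 1.38e-06).

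Factors that bind the proteasome rose in 7 of 17 cases and fell in 4 (all genes 31.9% and 32.8%), against 4 higher and 11 lower on log2(TPM + 1) values (all genes 17.2% and 51.9%). Beside ADRM1, SEM1 and POMP, ZFAND2A, a stress-induced proteasome-binding factor, rose by 1.49 ± 0.13 (edgeR adjusted p = 4.05e-06). ECPAS, an adaptor of the 26S particle, had 18.5, 24.4 and 20.7 TPM with CCT068127 and 58.6, 56.6 and 57.8 TPM with DMSO, and fell by 0.96 ± 0.10 (adjusted p = 1.75e-05). Of 11 genes of the p97 segregase, which extracts ubiquitylated proteins, and its cofactors, 2 rose and 3 fell (all genes 31.9% and 32.8%). On log2(TPM + 1) values 0 were higher and 7 lower (all genes 17.2% and 51.9%). UBXN1 (-0.96 ± 0.10, adjusted p = 1.38e-05), UBXN4 (-0.51 ± 0.16, 0.014) and FAF2 (-0.37 ± 0.09, 0.00497) fell, and DERL1 rose by 0.44 ± 0.10 (0.00223; -0.04 on log2(TPM + 1) values).

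Other large complexes offer a scale for these changes. Of all genes, 31.9% were higher and 32.8% lower under TMM, and 17.2% and 51.9% on log2(TPM + 1) values. The COP9 signalosome, whose subunits mirror those of the lid, had 8 of 10 genes higher and 0 lower, with a median of 0.51, beside 0.57 for the lid; on log2(TPM + 1) values 2 were higher and 2 lower, with a median of 0.02, beside 0.08 for the lid. COPS8 (1.69 ± 0.11) and COPS9 (1.30 ± 0.11) rose (edgeR adjusted p = 5.34e-07 and 2.84e-06), as did COPS7B (0.64 ± 0.11, adjusted p = 0.000461). The translation initiation complex eIF3, built on related scaffold subunits, had 4 of 13 higher and 7 lower, with a median of -0.28, and on log2(TPM + 1) values 0 higher and 9 lower. EIF3L fell by 0.81 ± 0.09 (adjusted p = 2.48e-05), while EIF3I rose by 0.63 ± 0.10 (adjusted p = 0.000225). The TRiC chaperonin had 8 of 8 higher, with a median of 0.86, and on log2(TPM + 1) values 5 higher and 1 lower. CCT5 rose by 1.23 ± 0.10 (adjusted p = 1.41e-06). With library totals COP9 had 4 higher and 2 lower, eIF3 2 and 9, and TRiC 5 and 0 (all genes 22.1% and 48.3%). The differences between these sets were not tested.

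**Figure D5:**
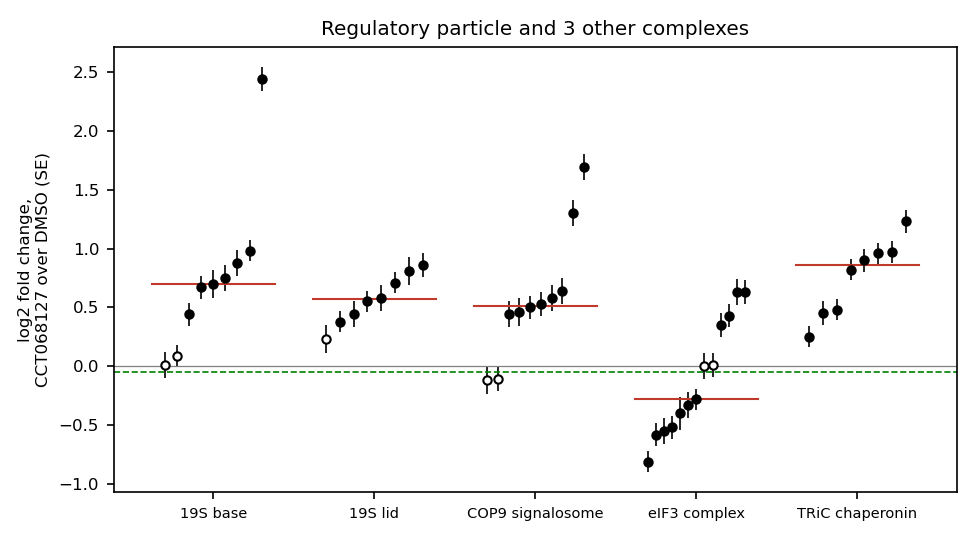
Log2 fold change with SE of each tested gene of the 19S base, 19S lid, COP9 signalosome, eIF3 and TRiC, CCT068127 over DMSO; filled points were past an adjusted p of 0.05 (edgeR), red lines are set medians and the green dashed line is the median of all genes. The lid and COP9 medians were 0.57 and 0.51, and eIF3 lay at -0.28.

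Promoter windows of 300 bases were available from RefSeq (GRCh38.p14) for 42 of the 48 members, 40 of them tested. PSMA7, PSMB1, PSMB6, PSMB7, PSMD4 and PSMG3 had none. Motif letters were searched on both strands, and a match is only a run of letters. Shares for all genes cover every gene with a window, tested here or not, whereas the 40 members all passed the low-count filter. The antioxidant response element core TGACNNNGC, which NRF1 and NRF2 can bind, was in 15 of the 40 (37.5%), against 16.1% of 27305 genes with a window. Among members it was in 5 of 23 that rose, 2 of 3 that fell and 8 of 14 not past the threshold. Members with it included PSMB3, PSMC4, PSMD12, PSMD5 and PSMB9, and PSMD2 had none in either of its windows. The CCAAT box was in 19 of 40 (47.5%, all genes 39.7%) and the GC box GGGCGG in 28 of 40 (70%, all genes 48.3%). The interferon-stimulated response element core (GAAA, any 2 bases, GAAA) was in 7 members (17.5%, all genes 4.4%), namely PSMA4, PSMB4, PSMB8, PSMB10, PSME1, PSME2 and PSMG4. The gamma-activated site core TTCNNNGAA was in 7 (17.5%, all genes 9.4%), and the heat shock element core (GAA, TTC and GAA, each 2 bases apart) in 0 of 40 (all genes 0.6%). Matches of different motifs may overlap. The median GC content was 62.3% in members' windows and 58.7% in all windows, and its part in the motif counts was not tested.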

How the data were processed

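RNA from 3 CCT068127 and 3 DMSO cultures of T-24 cells was sequenced after poly(A) selection, per the labels' protocols. The authors deposited estimated counts and TPM values per gene symbol, with RSEM, Bowtie and the human build hg38 named in the submitters' processing notes; versions, annotation and strand setting are not given in the sources used here. The deposited counts entered the edgeR fits as given, and rounding to whole numbers was applied only for DESeq2. Genes were kept with edgeR's filterByExpr (minimum count 10), scaled by TMM and tested with edgeR 4.0.16 quasi-likelihood fits (two-sided, Benjamini-Hochberg over 13597 genes, threshold 0.05; R 4.3.3), on scripts tested on simulated data. Differences on the log2(TPM + 1) scale were fitted with limma 3.58.1 to the deposited TPM values of genes with at least 1 TPM in 3 libraries; such log2 values understate changes of low genes. DESeq2 1.42.0 and further scalings, filters and left-out libraries were alternatives.

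The members, pathway lists and rules for named genes were chosen with earlier results of these data known. Every member was accounted for, and members named with values were the catalytic, assembly, activator and receptor genes and the highest and lowest of each subcomplex; from each pathway list the smallest adjusted p-values and a fixed set of regulators were named. Some genes of these lists are not reported here. Gene positions and exon overlaps are from GENCODE 29 (GRCh38) and promoters from RefSeq (GRCh38.p14). No pair of replicates agreed within sampling noise (chi-square per degree of freedom 2.77 to 338). Reads carry no molecular identifiers, so depth gives counting error only.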

Additional observations from a re-analysis of the deposited data

How the results depend on the processing

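The upper-quartile, DESeq2 and limma-voom fits, the replicate block and thinning of the deep DMSO libraries kept the number of members called higher and the medians of members and subcomplexes close to those reported; scaling by library totals, the absence of a low-count filter and the TPM scale moved them. Members called higher numbered 17 with library totals, 17 without a low-count filter and 12 on log2(TPM + 1), log2(TPM + 0.1) and unfiltered log2(TPM + 1) values, and members called lower 12, 6, 19, 19 and 15 in the same order. In that order the median log2 fold change of all members was 0.11, 0.17, -0.09, -0.09 and -0.08, that of the alpha ring 0.21, 0.28, 0.03, 0.03 and 0.03, of the constitutive beta ring 0.35, 0.42, 0.18, 0.18 and 0.18, of the immunoproteasome genes -0.75, -0.69, -0.97, -0.98 and -0.97, of the base 0.39, 0.47, 0.17, 0.17 and 0.17, of the lid 0.25, 0.33, 0.08, 0.08 and 0.08, of the assembly factors -0.22, -0.16, -0.58, -0.59 and -0.58, and of activators and inhibitor -0.24, -0.17, -0.41, -0.43 and -0.41. The median over all genes moved with them, to -0.36, -0.49, -0.46, -0.53 and -0.04. On unfiltered log2(TPM + 1) values the members' median was thus 0.04 below that of all genes. On all TPM scales the sign turned, among genes called under TMM and the always named NFE2L3 and TAP1, for PSMB7 (-0.09), PSMC6 (-0.21), PSMD1 (-0.03), PSMD8 (-0.07), PSMD11 (-0.11), PSME1 (-0.08), NFE2L2 (-0.24), DERL1 (-0.04, and -0.05 with the smaller pseudocount) and NFE2L3 (-0.44 and -0.45, and -0.28 with library totals), and on filtered TPM for TAP1 (-0.39); the cause was not tested. Among members not called under TMM the sign turned on log2(TPM + 1) values for PSMG4 (-0.96), PSMB5 (-0.51), PSMD4 (-0.49), PSMC5 (-0.44), PSME4 (-0.41), PSMB6 (-0.35), PSMD3 (-0.28), PSMD9 (-0.25) and PSME2 (-0.25), which passed there as lower, and for PSMG3 (-0.37), which did not.

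Leaving out 1 library at a time gave 7816 to 9242 genes called, 25 to 30 members higher and 3 to 5 lower (5 without CCT068127 replicate 1 or 2), and medians of 0.35 to 0.45 for members, 0.46 to 0.54 for the alpha ring, 0.60 to 0.68 for the beta ring, -0.56 to -0.37 for the immunoproteasome genes, 0.65 to 0.73 for the base, 0.50 to 0.58 for the lid, -0.09 to 0.16 for assembly factors and -0.05 to 0.10 for activators and inhibitor. Replicate numbers did not pair the samples (correlations of 0.01, 0 and 0.01 between same-numbered libraries), and with the replicate block 8297 genes were called, 26 members higher and 3 lower. CCT068127 replicate 2, with 1966742 counts, limits the precision of the low genes PSMB10, PSMG3 and PSMG4.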
